A study of Homo sapiens with 18 samples.

Results

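Genes of autophagy and of the lysosome were followed in OCI-AML3 cells, a human acute myeloid leukaemia line, after 24 h with RG7112 at 2 µM, with HDM201 at 500 nM or with DMSO, the solvent control. The list was written by function, not by measured change: it names 43 genes, and 42 of them had a probe that carries their symbol alone, out of 17687 symbols measured. VMP1 was not analysed here. Both compounds are MDM2 inhibitors per the series text. MDM2 marks p53 with ubiquitin for degradation, so the comparisons with DMSO ask how these genes respond to MDM2 inhibition. All 3 groups held 6 arrays that the labels call biological replicates, and all cells were labelled wildtype and grew in the same serum-supplemented RPMI medium. One cell line, a single dose of each compound and a single time were tested, and the doses differ between the compounds. Values are log2 array signals, changes are differences of group means on that scale with the standard error (SE) of limma's model, and a gene is said to have risen or fallen at an adjusted p under 0.05 (Benjamini-Hochberg, across the 21448 probes). The labels do not say how the cultures were kept apart, and each p therefore speaks only of the spread among these samples, which may be technical.

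In autophagy, a cell encloses part of its cytoplasm in a double membrane, the autophagosome, and delivers it to lysosomes, where acid hydrolases digest it. The ULK1 kinase complex starts the process, a class III phosphoinositide 3-kinase marks the membrane, and a pair of ubiquitin-like conjugation systems couples ATG8-family proteins (LC3 and GABARAP proteins) to lipid. TFEB and TFE3 are transcription factors that bind E-box elements of lysosomal genes. In leukaemia cells p53 is known both for inducing genes that promote autophagy and for its role in cell death.

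The arrays were alike in their medians (6.44 to 6.57) and lowest signals (2.66 to 2.85), and RG7112 replicate 3 had a narrower interquartile range (3.45) than the other arrays (3.70 to 3.91). Replicates 1 to 3 were known from earlier results to stand apart from replicates 4 to 6 in each group. The p53 target CDKN1A rose by 3.97 ± 0.33 (SE) with RG7112 and by 4.10 ± 0.33 with HDM201 (limma, adjusted p = 9.07e-08 and 2.28e-08). Among markers of the line, 7 of 8 lay above the lowest 25% of all probes by mean signal, and KIT did not. AZU1 and SPI1 rose with both compounds, FLT3 fell with both, and PRTN3 fell with HDM201 (−0.41, adjusted p = 0.0310), a call that was lost without DMSO replicate 2, 3 or 6 or HDM201 replicate 1 or 2. Of 11 monocyte and macrophage markers, ITGAM, an integrin chain, rose by 2.09 with RG7112 and 2.18 with HDM201, the other 10 did not pass, and 3 lay in that lowest part. The mean signal of these markers per array was 6.43 to 6.84 with RG7112, 6.41 to 6.88 with HDM201 and 5.99 to 6.56 with DMSO, and their part in the results below was not tested. No lymphocyte marker (of 8) and no erythroid or megakaryocyte marker (of 8) passed, and 4 and 2 of them lay in that lowest part. Of all probes 17.5% changed with RG7112 and 18.8% with HDM201, so 0 of 8 in such short lists tells little. Among 9 fibroblast and epithelial markers KRT8 rose with RG7112 (0.44, adjusted p = 0.0307) and EPCAM fell with HDM201 (−0.40, adjusted p = 0.00585). The KRT8 call was lost without DMSO replicate 2, 3, 4 or 6 or RG7112 replicate 1. EPCAM was dim, with a mean signal of 4.16 in the lowest 25% of probes. Its call was lost within replicates 4 to 6 alone (adjusted p = 0.204). In RNA from a whole culture, a change in the mix of cells and a change in RNA per cell cannot be told apart.

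With RG7112, 12 of the 42 genes rose, PIK3R4 fell and 29 did not pass, whereas 7.90% of all probes rose and 9.61% fell. With HDM201, 15 rose, PIK3R4 fell and 26 did not pass, against 9.16% and 9.64% of all probes. The genes were measured at higher signals than most probes, with mean signals from the 25.6th to the 97.8th percentile. Among probes at or above the median signal 12.1% rose and 16.3% fell with RG7112, and 14.8% rose and 16.0% fell with HDM201. The median change of the 42 genes was 0.09 with RG7112 and 0.14 with HDM201, beside 0.03 and 0.02 over all probes. The scaling moved these medians: with array medians subtracted they were 0.04 and 0.10, beside −0.02 and −0.01 over all probes, and after a further quantile normalization both were 0.15, beside 0.01 and 0.01. Of the 42 changes 31 (73.8%) were above 0 in each comparison, as were 55.9% of all probes with RG7112 and 55.2% with HDM201 (46.1% and 50.1% of probes at or above the median signal). For 8 of the genes every RG7112 array lay above every DMSO array, as for 4.29% of all probes, and for 12 every HDM201 array did, as for 6.63%. None lay wholly below DMSO, beside 5.61% of all probes with RG7112 and 6.92% with HDM201. Most changes were small: GABARAPL1 alone rose by over 1 on the log2 scale. Without RG7112 replicate 3, 12 genes rose and 1 fell with RG7112, and 16 rose and 1 fell with HDM201. The comparisons with DMSO share the same DMSO arrays.

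**Figure D1:**
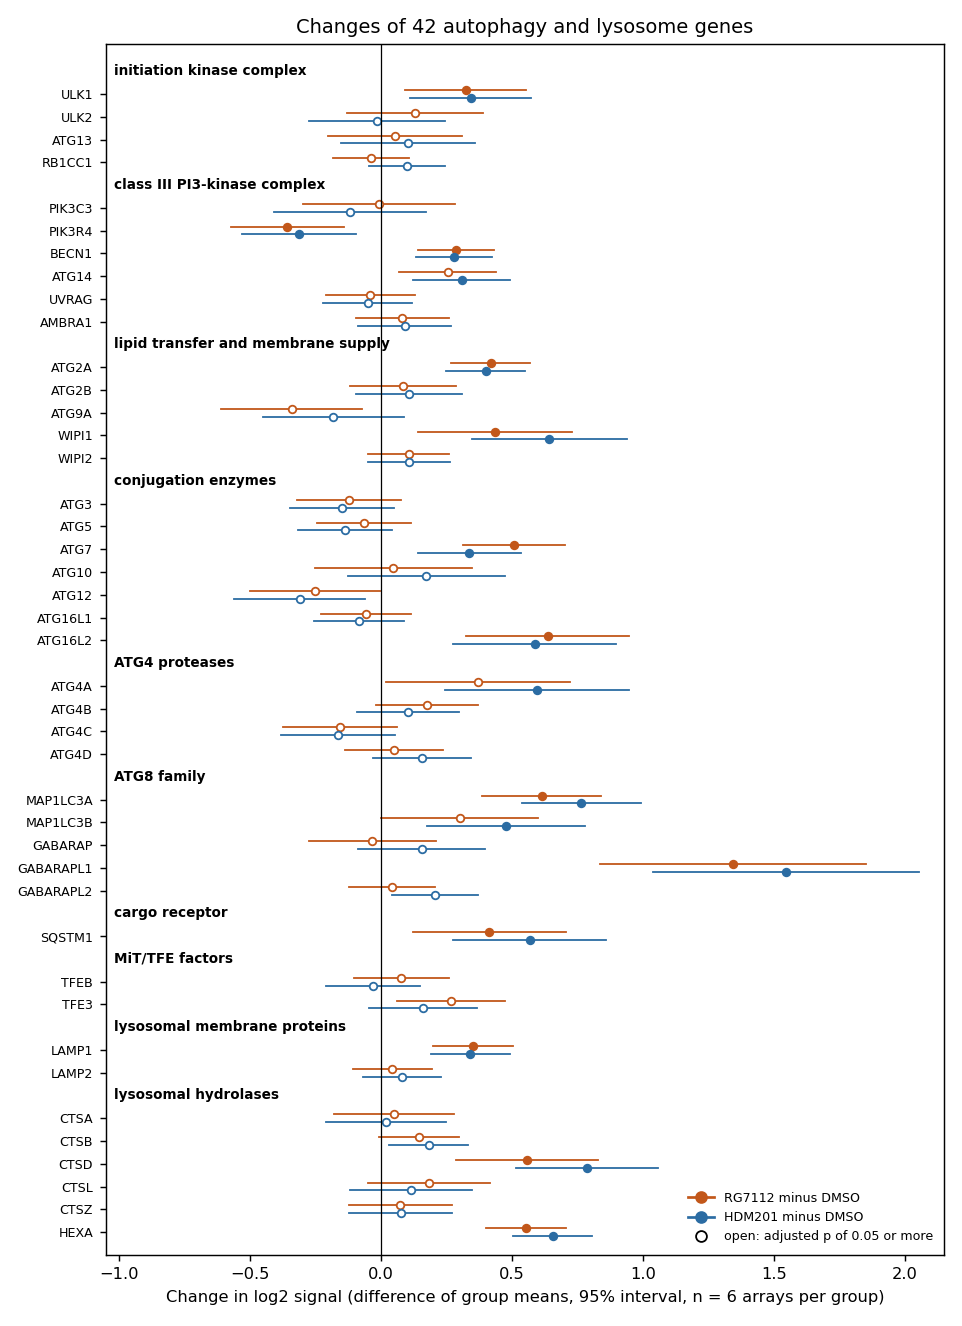
Change in log2 signal of the 42 genes (rows, grouped by role) for RG7112 minus DMSO and HDM201 minus DMSO, with 95% intervals of limma's fit (n = 6 arrays in each group); open circles mark adjusted p of 0.05 or more. GABARAPL1 lies farthest right, at 1.34 with RG7112 and 1.55 with HDM201, and PIK3R4 is the filled point left of 0, at −0.36 and −0.31.

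Promoters of 3 genes that rose are shown because they hold the motifs searched: GABARAPL1 and CTSD had the largest changes among genes with a promoter in the table used, and LAMP1 was added after its matches were seen. The sequences are the 250 bases before the annotated gene start, from RefSeq's GRCh38.p14, written 5′ to 3′ on the gene's strand. Capitals mark motif matches. The GABARAPL1 stretch is chr12:10212627-10212876 (plus strand), that of CTSD is chr11:1763928-1764177 (minus strand), and that of LAMP1 is chr13:113296989-113297238 (plus strand).
GABARAPL1: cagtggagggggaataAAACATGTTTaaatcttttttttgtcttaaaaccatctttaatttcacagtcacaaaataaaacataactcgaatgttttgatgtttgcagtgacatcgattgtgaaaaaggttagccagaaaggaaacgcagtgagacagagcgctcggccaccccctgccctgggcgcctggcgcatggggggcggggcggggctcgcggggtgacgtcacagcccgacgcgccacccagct
CTSD: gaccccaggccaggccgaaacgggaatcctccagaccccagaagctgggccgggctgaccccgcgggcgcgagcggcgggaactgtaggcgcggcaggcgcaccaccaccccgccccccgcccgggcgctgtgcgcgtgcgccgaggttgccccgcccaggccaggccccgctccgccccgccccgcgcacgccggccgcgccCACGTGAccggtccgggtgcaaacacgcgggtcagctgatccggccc
LAMP1: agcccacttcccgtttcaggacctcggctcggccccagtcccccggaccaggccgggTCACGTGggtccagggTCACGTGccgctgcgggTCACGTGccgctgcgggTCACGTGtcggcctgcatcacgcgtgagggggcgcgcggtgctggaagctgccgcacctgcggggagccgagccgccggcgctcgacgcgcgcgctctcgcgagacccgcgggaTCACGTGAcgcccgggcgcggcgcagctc
The motifs were the E-box CACGTG, its extension TCACGTG, which contains the E-box, and the decamer of the p53 response element by name, each on both strands of windows from 250 bases before to 50 after the start. Windows were found for 35 of the 42 genes. The E-box occurred in 5 of these 35 windows (14.3%), in ATG14, ATG3, LAMP1, CTSA and CTSD, and in 5.59% of all 35116 promoters. The same 5 held TCACGTG, which 2.87% of all promoters hold. Of these 5, 3 rose with at least 1 compound (ATG14, LAMP1 and CTSD), and ATG3 and CTSA did not pass. Of the 35 genes with a window, 13 rose with at least 1 compound and 21 passed with neither. The E-box was in 3 of those 13 and in 2 of those 21, and a link between motif and change was not tested. LAMP1 had 6 E-boxes in its window, 5 of them in the stretch shown. The p53 decamer occurred in 1 of 35 windows, that of GABARAPL1, at bases −234 to −225 from the start, and in 5.18% of all promoters. The promoters behind these shares were all those of the reference used, not matched to the 35 windows in gene type or base content. WIPI1 and ATG16L2, which had the next largest changes among genes with a window, held none of the motifs. A match is a run of letters and does not show binding.

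**Figure D2:**
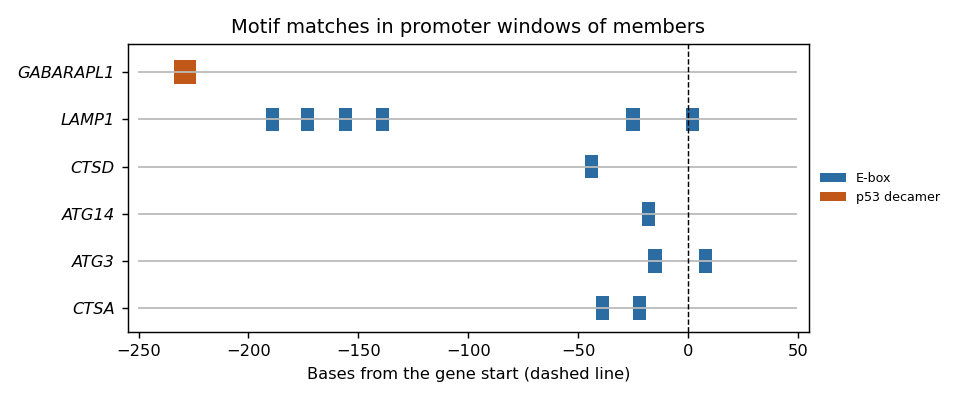
Position of motif matches (bars) in the promoter windows of the genes that hold any, in bases from the gene start (dashed line at 0). LAMP1 has 6 E-boxes, CTSA and ATG3 have 2 each, CTSD and ATG14 have 1 each, and GABARAPL1 has 1 p53 decamer.

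The ATG8 family, whose lipid-bound proteins sit on the autophagosome membrane and hold cargo receptors, gave the largest change, that of GABARAPL1. Of its 5 measured genes, 2 rose with RG7112 and 3 with HDM201. Of all probes 7.90% rose with RG7112 and 9.16% with HDM201. Among probes at or above the median signal these shares were 12.1% and 14.8%. The groups of genes by role are small, and whether any rose more often than all probes was not tested. GABARAPL1 had signals of 7.58, 8.15 and 9.05 (lowest, median and highest array) with RG7112, 7.70, 8.42 and 8.97 with HDM201, and 6.46, 6.93 and 7.19 with DMSO. Every array of either compound lay above every DMSO array. The change was 1.34 ± 0.24 with RG7112 (2.54-fold, limma adjusted p = 4.77e-04) and 1.55 ± 0.24 with HDM201 (2.92-fold, adjusted p = 7.82e-05). MAP1LC3A, which encodes LC3A, had 8.38, 8.60 and 8.84 with RG7112, 8.39, 8.74 and 9.07 with HDM201, and 7.62, 8.04 and 8.16 with DMSO, again without overlap. It rose by 0.61 ± 0.11 (adjusted p = 3.89e-04) and by 0.76 ± 0.11 (adjusted p = 2.51e-05). MAP1LC3B encodes LC3B, the protein most used to count autophagosomes. Its signals were 8.06, 8.86 and 9.18 with RG7112, 8.76, 8.93 and 9.27 with HDM201, and 8.29, 8.52 and 8.61 with DMSO, so that only the HDM201 arrays stood clear of DMSO. The HDM201 change of 0.48 ± 0.14 passed (adjusted p = 0.0228) but was lost without DMSO replicate 4 or HDM201 replicate 2 or 3. The RG7112 change of 0.30 ± 0.14 did not pass (adjusted p = 0.164), and it did without RG7112 replicate 3 (adjusted p = 0.00470). GABARAP and GABARAPL2 did not pass in either comparison. GABARAP changed by −0.03 ± 0.12 with RG7112 and 0.16 ± 0.12 with HDM201, and it had 10.37 on RG7112 replicate 3 beside 11.06 to 11.28 on the group's other arrays. GABARAPL2 differed by 0.04 ± 0.08 and 0.21 ± 0.08 (adjusted p = 0.772 and 0.0773), and passed with HDM201 without RG7112 replicate 3 or HDM201 replicate 6. MAP1LC3B and GABARAPL1 have close copies in the genome, MAP1LC3B2 and GABARAPL3, and whether their probes also pick up those RNAs was not tested.

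**Figure D3:**
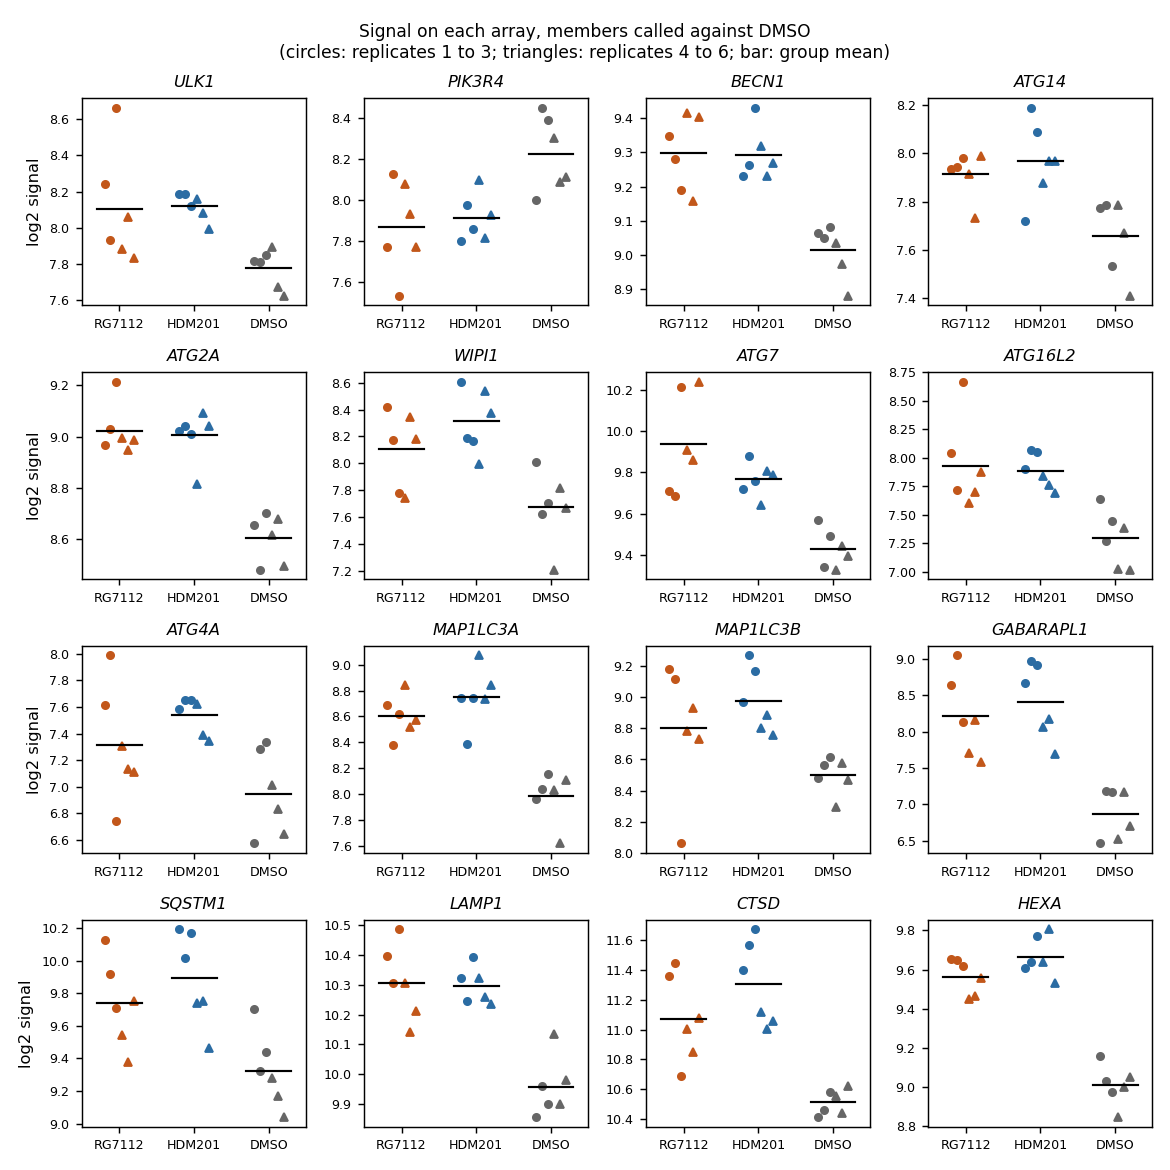
Log2 signal on each array for the 16 genes that rose or fell in at least 1 comparison with DMSO, with RG7112, HDM201 and DMSO from left to right (circles, replicates 1 to 3; triangles, replicates 4 to 6; bar, group mean; n = 6 arrays per group). GABARAPL1, MAP1LC3A, ATG2A, CTSD and HEXA show no overlap between either compound and DMSO, while SQSTM1, WIPI1 and PIK3R4 overlap.

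The ATG4 proteases trim ATG8 proteins before conjugation and release them from lipid afterwards. ATG4A was the single one of 4 to pass, with HDM201 (9.16% of all probes rose with HDM201). Its signals were 6.74, 7.22 and 7.99 with RG7112, 7.35, 7.60 and 7.66 with HDM201, and 6.57, 6.92 and 7.34 with DMSO. The HDM201 arrays lay just above the DMSO arrays, and the RG7112 arrays were the most spread. The change was 0.60 ± 0.17 with HDM201 (adjusted p = 0.0150) and 0.37 ± 0.17 with RG7112 (adjusted p = 0.143). Without RG7112 replicate 3 the RG7112 change passed (adjusted p = 0.0396), and without RG7112 replicate 2 it was 0.23. ATG4B, ATG4C and ATG4D changed by −0.16 to 0.18 and did not pass.

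The conjugation enzymes couple ATG12 to ATG5 and ATG8 proteins to lipid. Of 7 measured, ATG7 and ATG16L2 rose with each compound and none fell (7.90% of all probes rose with RG7112 and 9.16% with HDM201). ATG7 is the E1-like enzyme that activates both ubiquitin-like proteins. It had 9.69, 9.88 and 10.24 with RG7112, 9.64, 9.77 and 9.88 with HDM201, and 9.33, 9.42 and 9.57 with DMSO. The groups did not overlap with DMSO, and the changes were 0.51 ± 0.09 with RG7112 (adjusted p = 5.74e-04) and 0.34 ± 0.09 with HDM201 (adjusted p = 0.0134). ATG16L2, a homologue of the scaffold ATG16L1, had 7.60, 7.79 and 8.67 with RG7112, 7.69, 7.87 and 8.07 with HDM201, and 7.02, 7.33 and 7.64 with DMSO. It rose by 0.64 ± 0.15 (adjusted p = 0.00473) and 0.59 ± 0.15 (adjusted p = 0.00708). The lowest RG7112 array lay under the highest DMSO array, and the HDM201 arrays were all above it. ATG16L1 itself changed by −0.06 ± 0.08 and −0.08 ± 0.08 and did not pass. ATG12, the ubiquitin-like protein, had lower means with both compounds (−0.25 ± 0.12 with RG7112 and −0.31 ± 0.12 with HDM201) without passing (adjusted p = 0.161 and 0.0786), and passed with HDM201 without HDM201 replicate 4 or 5 and with the replicate sets as a factor (adjusted p = 0.0211). ATG3 and ATG10, the E2-like enzymes, and ATG5 changed by −0.15 to 0.17 and did not pass.

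Of the initiation kinase complex, ULK1 rose by small amounts and the other 3 measured genes did not pass. ULK1 is the kinase that AMPK activates and mTORC1 restrains. It had 7.83, 8.00 and 8.66 with RG7112, 8.00, 8.14 and 8.19 with HDM201, and 7.63, 7.81 and 7.90 with DMSO. The HDM201 arrays did not overlap with DMSO, and the RG7112 arrays did. The changes were 0.32 ± 0.11 with RG7112 (adjusted p = 0.0480) and 0.34 ± 0.11 with HDM201 (adjusted p = 0.0331). Both calls were near the threshold. With 1 of the 18 arrays left out, the RG7112 call held only without RG7112 replicate 2, 4 or 6, and the HDM201 call was lost without DMSO replicate 2, 5 or 6 or HDM201 replicate 1, 2, 3 or 4. Without RG7112 replicate 3 the RG7112 change was 0.21. Both calls were lost when each array's median was subtracted (adjusted p = 0.0865 with RG7112 and 0.0503 with HDM201) and after quantile normalization (0.0549 and 0.0560), and the RG7112 call also under array weights (0.0518) and with only the 12 arrays compared (0.104). ULK2, ATG13 and the scaffold RB1CC1 (FIP200) changed by −0.04 to 0.13.

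PIK3R4, of the class III phosphoinositide 3-kinase complex, fell with both compounds. It encodes the regulatory subunit VPS15, which anchors the lipid kinase PIK3C3 (VPS34). PIK3R4 had 7.53, 7.85 and 8.13 with RG7112, 7.80, 7.89 and 8.10 with HDM201, and 8.00, 8.21 and 8.45 with DMSO, with overlap in both comparisons. It fell by 0.36 ± 0.10 with RG7112 (adjusted p = 0.0200) and by 0.31 ± 0.10 with HDM201 (adjusted p = 0.0386). The RG7112 call was lost without DMSO replicate 2 or 3, and the HDM201 call without DMSO replicate 2, 3 or 4 or HDM201 replicate 1, 2, 3, 5 or 6. BECN1 encodes Beclin 1, the subunit that BCL2 proteins bind. Its signals were 9.16, 9.32 and 9.42 with RG7112, 9.23, 9.27 and 9.43 with HDM201, and 8.88, 9.04 and 9.08 with DMSO, with no overlap. BECN1 rose by 0.29 ± 0.07 and 0.28 ± 0.07 (adjusted p = 0.00617 and 0.00646). ATG14, which directs the complex to autophagosome formation, had 7.73, 7.94 and 7.99 with RG7112, 7.72, 7.97 and 8.19 with HDM201, and 7.41, 7.72 and 7.78 with DMSO. Both compounds' arrays overlapped slightly with DMSO. ATG14 rose by 0.31 ± 0.09 with HDM201 (adjusted p = 0.0164), a call lost without DMSO replicate 6 or HDM201 replicate 2. The RG7112 change of 0.25 ± 0.09 lay just past the threshold (adjusted p = 0.0518) and passed when RG7112 replicate 5, HDM201 replicate 1 or 2, or DMSO replicate 1 was left out, and with the replicate sets as a factor (adjusted p = 0.0438). PIK3C3, UVRAG and AMBRA1 changed by −0.12 to 0.09 and did not pass.

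Genes that supply lipid and membrane to the growing autophagosome gave 2 that rose of 5 measured, with each compound. Of all probes 7.90% rose with RG7112 and 9.16% with HDM201. ATG2A, a lipid transfer protein, had 8.95, 8.99 and 9.22 with RG7112, 8.82, 9.03 and 9.09 with HDM201, and 8.48, 8.63 and 8.70 with DMSO. It rose by 0.42 ± 0.07 and 0.40 ± 0.07 (adjusted p = 2.78e-04 and 3.35e-04) with no overlap. Its paralogue ATG2B changed by 0.08 ± 0.10 and 0.11 ± 0.10 and did not pass. WIPI1, which binds the phosphoinositide made by PIK3C3, had 7.74, 8.18 and 8.42 with RG7112, 7.99, 8.28 and 8.61 with HDM201, and 7.21, 7.68 and 8.01 with DMSO. Its change was 0.44 ± 0.14 with RG7112 (adjusted p = 0.0375) and 0.64 ± 0.14 with HDM201 (adjusted p = 0.00225). Both compounds overlapped with DMSO, by a narrow margin for HDM201. The RG7112 call was lost without DMSO replicate 2, 3, 4 or 6 or RG7112 replicate 1, 2, 5 or 6, when array medians were subtracted, and with only the 12 arrays compared. WIPI2 changed by 0.11 ± 0.07 with each compound. ATG9A, the membrane-spanning scramblase, had a lower mean with RG7112 (−0.34 ± 0.13, adjusted p = 0.0763) and HDM201 (−0.18 ± 0.13, adjusted p = 0.400), and passed with RG7112 without RG7112 replicate 1 or 5 and with array medians subtracted (adjusted p = 0.0410). Without RG7112 replicate 3 its RG7112 change was −0.22.

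SQSTM1 encodes p62, a receptor that brings ubiquitinated cargo to ATG8 proteins and is itself degraded by autophagy. It had 9.38, 9.73 and 10.13 with RG7112, 9.47, 9.89 and 10.19 with HDM201, and 9.04, 9.30 and 9.70 with DMSO. The arrays overlapped in both comparisons. SQSTM1 rose by 0.57 ± 0.14 with HDM201 (adjusted p = 0.00581) and by 0.41 ± 0.14 with RG7112 (adjusted p = 0.0468). With 1 array left out, the RG7112 call held in 6 fits, those that omitted RG7112 replicate 4 or 5, HDM201 replicate 1, 3 or 6, or DMSO replicate 1, and it was lost when array medians were subtracted.

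The transcription factors TFEB and TFE3 did not pass in either comparison. TFEB was near the dim end of the array, with a mean signal of 4.68, and changed by 0.08 ± 0.09 with RG7112 and −0.03 ± 0.09 with HDM201. TFE3 had 8.25, 8.46 and 8.92 with RG7112, 8.33, 8.45 and 8.53 with HDM201, and 8.10, 8.27 and 8.40 with DMSO. Its change was 0.27 ± 0.10 with RG7112 (adjusted p = 0.0662; 0.0218 without RG7112 replicate 4, 0.0300 with the replicate sets as a factor) and 0.16 ± 0.10 with HDM201 (adjusted p = 0.308). These proteins are known to be controlled by phosphorylation and nuclear entry, which RNA arrays do not measure.

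Lysosomal genes of the list rose in 3 of 8 cases with each compound (7.90% of all probes rose with RG7112 and 9.16% with HDM201). The arrays of all 3 did not overlap with DMSO, beside 4.29% of all probes that lay wholly above DMSO with RG7112 and 6.63% with HDM201. CTSD encodes cathepsin D, an aspartic protease. It had 10.69, 11.04 and 11.44 with RG7112, 11.00, 11.26 and 11.67 with HDM201, and 10.41, 10.51 and 10.63 with DMSO. CTSD rose by 0.56 ± 0.13 with RG7112 (1.47-fold, adjusted p = 0.00452) and by 0.79 ± 0.13 with HDM201 (1.73-fold, adjusted p = 1.26e-04). HEXA encodes the alpha chain of beta-hexosaminidase, which cleaves gangliosides. Its signals were tight in every group, at 9.45, 9.59 and 9.65 with RG7112, 9.53, 9.64 and 9.81 with HDM201, and 8.85, 9.02 and 9.16 with DMSO. HEXA rose by 0.55 ± 0.07 and 0.65 ± 0.07 (adjusted p = 1.56e-05 and 1.24e-06), the lowest adjusted p of the list in both comparisons. LAMP1, a heavily glycosylated protein of the lysosomal membrane, had 10.14, 10.31 and 10.49 with RG7112, 10.24, 10.29 and 10.39 with HDM201, and 9.86, 9.93 and 10.14 with DMSO. It rose by 0.35 ± 0.07 and 0.34 ± 0.07 (adjusted p = 0.00162 and 0.00172), and LAMP2 changed by 0.04 ± 0.07 and 0.08 ± 0.07. The hydrolases CTSA, CTSB, CTSL and CTSZ had small positive changes, from 0.02 to 0.18, and did not pass. CTSB passed with both compounds after quantile normalization (adjusted p = 0.0383 with RG7112 and 0.0244 with HDM201). With HDM201 it also passed under array weights (0.0411) and without probes below the median signal (0.0470).

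RG7112 and HDM201 were set side by side at their different doses. No probe passed between them (limma, 0 of 21448, 0%, beside 749 before adjustment at the same threshold). Before adjustment 1 of the 42 genes passed, GABARAPL2, with a difference of 0.17 (HDM201 minus RG7112). Over the 42 genes the differences ran from −0.17 to 0.23, and their 95% intervals from −0.41 to 0.71. The genes that passed with HDM201 alone were not shown to differ between the compounds. For ATG4A the difference was 0.23 (95% interval −0.12 to 0.58), for MAP1LC3B 0.18 (−0.12 to 0.48) and for ATG14 0.05 (−0.13 to 0.24). For GABARAPL1 it was 0.20 (−0.31 to 0.71), and for CTSD 0.23 (−0.04 to 0.50). These intervals leave room for differences of up to about the size of many of the changes against DMSO.

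Replicates 1 to 3 and 4 to 6 were compared because the sets stood apart, and the labels do not say what the numbers share. The split was known from earlier results of these data, so p-values across it are no independent evidence that the sets differ. In DMSO, CDKN1A was at 9.06 in replicates 1 to 3 and 7.41 in replicates 4 to 6 (means of 3 arrays, limma adjusted p = 2.00e-06). Of the 42 autophagy and lysosome genes none differed between these DMSO sets (0.303% of all probes did). At an unadjusted p under 0.05, 3 of the 42 did, beside 1257 of 21448 probes. They were WIPI2, ATG3 and SQSTM1, with differences of 0.20, 0.31 and 0.33. Under array weights ATG3 passed (0.41, adjusted p = 0.0206). The change against DMSO differed between the sets for 0 of the 42 genes with either compound, beside 0.0373% of all probes with RG7112 and 0.149% with HDM201 (0.126% higher and 0.0233% lower in replicates 1 to 3). At an unadjusted p under 0.05 the counts were 0 of 42 with RG7112 and 3 of 42 with HDM201, beside 1309 and 1315 of 21448 probes. The HDM201 count is near the share of all probes and does not set these genes apart. Those 3 changed more in replicates 1 to 3: GABARAPL1 by 1.91 in the first set and 1.18 in the second, CTSD by 1.06 and 0.52, and ATG4D by 0.35 and −0.03. For ATG4D, HDM201 replicate 3 stood alone at 8.72, beside 8.15 to 8.31 on the group's other arrays. With RG7112 the changes of GABARAPL1 were 1.67 and 1.01, and those of CTSD 0.68 and 0.43. HEXA changed alike in the sets, by 0.58 and 0.52 with RG7112 and by 0.62 and 0.69 with HDM201. With a mean for each group and set, 10 genes rose and 1 fell with RG7112 within replicates 1 to 3 (6.84% and 8.64% of all probes), and 6 rose and 0 fell within 4 to 6 (3.33% and 3.87%, together 7.20%). With HDM201 8 rose and 1 fell within replicates 1 to 3 (7.58% and 8.89% of all probes), and 8 rose and 0 fell within 4 to 6 (4.34% and 4.46%, together 8.80%). Fits to each set alone, which use only that set's spread, gave another order. With RG7112 6 genes rose in replicates 1 to 3 and 9 in 4 to 6 (1973 and 2148 of 21448 probes rose or fell). With HDM201 7 and 10 rose (2504 and 2595 probes rose or fell). The probes that rose were not counted apart in these fits, so the gene counts have no like share beside them.

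**Figure D4:**
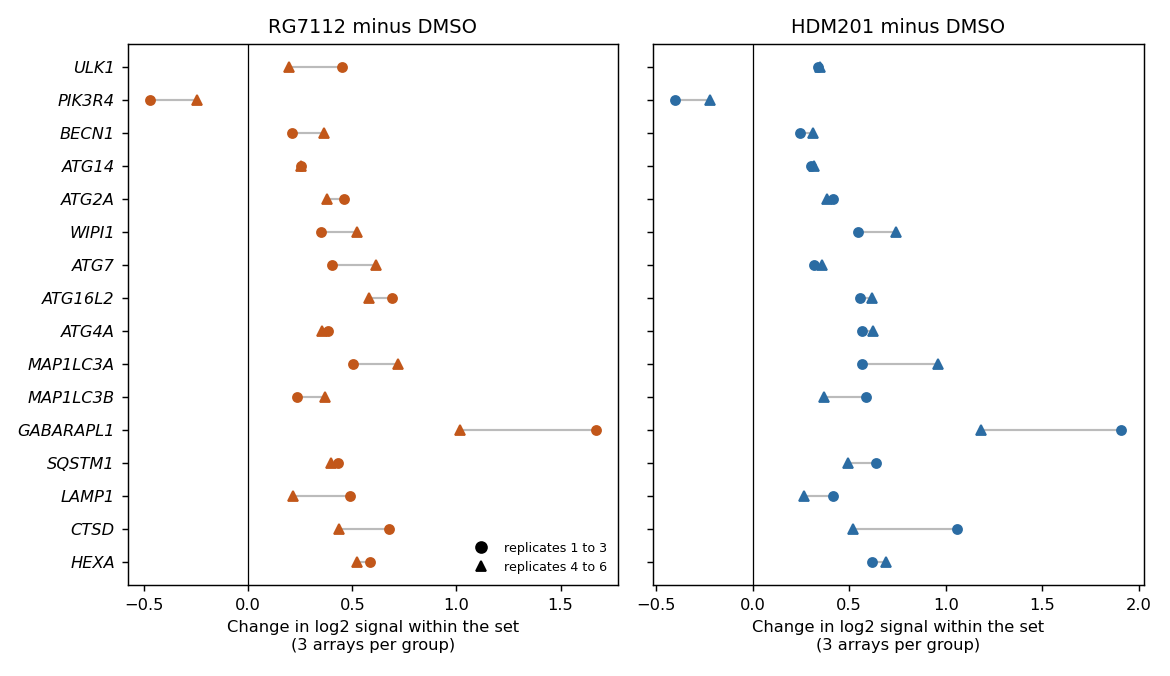
Change in log2 signal against DMSO within replicates 1 to 3 (circles) and within replicates 4 to 6 (triangles), 3 arrays per group in each set, for the 16 genes that rose or fell in at least 1 comparison. Every gene keeps its direction in both sets, and GABARAPL1 shows the widest gap, at 1.67 and 1.01 with RG7112 and 1.91 and 1.18 with HDM201.

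Further genes of these pathways came from 8 lists of 177 genes, of which 158 were measured. Of all probes 7.90% rose and 9.61% fell with RG7112, and 9.16% rose and 9.64% fell with HDM201. Most genes of these lists lay above the median signal. Among probes at or above it 12.1% rose and 16.3% fell with RG7112, and 14.8% rose and 16.0% fell with HDM201. Whether any list changed more often than these shares was not tested. The longest of them held other lysosomal hydrolases and their activators: of 34 measured, 18 rose (52.9%) and 3 fell (8.82%) with RG7112, and 19 rose (55.9%) and 2 fell (5.88%) with HDM201, with median changes of 0.36 and 0.35. FUCA1, which removes fucose from glycoproteins, rose by 1.73 ± 0.37 and 2.04 ± 0.37 (adjusted p = 0.00245 and 4.09e-04). ARSA, the sulfatase of sulfatide, rose by 1.32 and 1.37, the acid lipase LIPA by 1.18 and 1.32, and IDUA, which degrades heparan and dermatan sulfate, by 0.92 and 1.18. ASAH1 (acid ceramidase) did not pass, at 0.22 and 0.31 (adjusted p = 0.198 and 0.0635), and did with HDM201 without DMSO replicate 2 or 3 or RG7112 replicate 2 and with the replicate sets as a factor (adjusted p = 0.00888). Without RG7112 replicate 2 its RG7112 change was 0.13. The genes that fell, named after their values were seen, were CTSV (−1.03 and −1.10), GLA (−0.53 and −0.47) and, with RG7112, ACP2 (−0.33).

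Among 27 other lysosomal membrane proteins, 7 rose (25.9%) and 2 fell (7.41%) with RG7112, and 9 rose (33.3%) and 2 fell (7.41%) with HDM201 (medians 0.15 and 0.16). OSTM1, the partner of the chloride transporter CLCN7, rose by 0.73 and 0.89, and LAPTM5, a haematopoietic lysosomal protein, by 0.68 and 0.78. LAPTM4B fell by 0.58 and 0.70 and the channel MCOLN2 by 0.53 and 0.64. The RG7112 call of LAPTM4B was lost without DMSO replicate 4, 5 or 6 or RG7112 replicate 1 or 3. That of MCOLN2 held only in fits that omitted RG7112 replicate 2, 5 or 6, HDM201 replicate 1, 3 or 6, or DMSO replicate 1. CLCN7 changed by 0.35 and 0.34 without passing (adjusted p = 0.0517 and 0.0576). It passed with RG7112 when RG7112 replicate 5, HDM201 replicate 3 or DMSO replicate 3 was left out, and with HDM201 when RG7112 replicate 3 or 5, HDM201 replicate 6 or DMSO replicate 3 was. With the replicate sets as a factor CLCN7 passed with both (adjusted p = 0.00934 and 0.0104).

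Of 20 subunits of the V-ATPase, the pump that acidifies lysosomes, 6 (30.0%) rose with RG7112, 7 (35.0%) with HDM201 and none fell (medians 0.15 and 0.20). ATP6AP2 rose by 0.69 and 0.74, ATP6V0D1 by 0.58 and 0.64, ATP6V1E1 by 0.37 and 0.52, and ATP6V1H by 0.34 and 0.38. The RG7112 call of ATP6V1E1 was lost without DMSO replicate 1, 4, 5 or 6 or RG7112 replicate 1, 2, 3 or 4, and that of ATP6V1H without DMSO replicate 4 or 6. Both were lost when array medians were subtracted. ATP6V0A2 changed by −0.38 and −0.28 and did not pass, and without RG7112 replicate 3 its RG7112 change was −0.22.

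Other selective autophagy receptors rose in 3 of 13 cases (23.1%) with RG7112 and in 5 (38.5%) with HDM201 (medians 0.15 and 0.17), and TEX264, an ER-phagy receptor named after its values were seen, fell with both (−0.26 and −0.25). NCOA4, the receptor for ferritin, rose by 0.97 and 1.05, FUNDC1, a mitophagy receptor, by 0.56 and 0.58, and NBR1 by 0.40 and 0.53. TAX1BP1 rose with HDM201 (0.40) and changed by 0.16 with RG7112, and TOLLIP, named after its values were seen, rose with HDM201 (0.33). SEC62 changed by −0.42 and −0.06 without passing, and the RG7112 value rested on replicate 3: without that array it was −0.02. Of 18 other genes of autophagosome formation and fusion, 3 (16.7%) rose with RG7112, 5 (27.8%) with HDM201 and none fell (medians 0.13 and 0.19). ZFYVE1, a marker of the membrane site where autophagosomes form, rose by 0.88 and 0.83. VPS39, a subunit of the tethering complex HOPS, rose by 0.31 and 0.41, and TBK1, a kinase of cargo receptors, by 0.35 and 0.42. VPS11, also of HOPS, rose with HDM201 (0.49) and changed by 0.24 with RG7112, where it passed without RG7112 replicate 3. EPG5, named after its values were seen, rose with HDM201 (0.30). NRBF2 changed by 0.07 and 0.28 and did not pass. The RG7112 call of TBK1 held only in fits that omitted RG7112 replicate 3, 5 or 6, HDM201 replicate 2 or 6, or DMSO replicate 2, and was lost when array medians were subtracted.

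Of 28 genes of mTORC1, AMPK and Rag control, 5 rose (17.9%) and 2 fell (7.14%) with RG7112, and 6 rose (21.4%) and 3 fell (10.7%) with HDM201 (medians 0.13 and 0.14). PRKAB1 and PRKAB2, which encode the beta subunits of the energy sensor AMPK, rose by 1.15 and 0.75 with RG7112 and by 1.33 and 0.86 with HDM201. LAMTOR2, a subunit of the Ragulator, rose by 0.28 and 0.47. STK11, which encodes the AMPK kinase LKB1, rose by 0.44 with RG7112 and changed by 0.29 with HDM201 (adjusted p = 0.159). The RG7112 call of LAMTOR2 was lost without DMSO replicate 1, 5 or 6 or RG7112 replicate 1 or 4, and when array medians were subtracted. That of STK11 was lost without DMSO replicate 3 or RG7112 replicate 1 and with only the 12 arrays compared. Without RG7112 replicate 3 its RG7112 change was 0.28, and its HDM201 change passed. RRAGD changed by −0.37 and −0.26 and did not pass. Its RG7112 change was −0.13 without RG7112 replicate 3, and without DMSO replicate 5 the changes were −0.22 and −0.11. FLCN rose by 0.37 and 0.43, RRAGC (0.40) and LAMTOR4 (0.23) rose with HDM201, RHEB and MLST8 fell with both, and CAMKK2 fell with HDM201 (−0.26), all named after their values were seen. Of 6 other MiT and FOXO factors none passed with RG7112 and FOXO3 rose with HDM201 (0.28, adjusted p = 0.0335), a call lost without DMSO replicate 2, 3, 4 or 6 or HDM201 replicate 1, 2 or 3. FOXO3 passed with RG7112 without DMSO replicate 1. TFEC changed by 0.91 ± 0.43 and 1.07 ± 0.43 without passing, and passed with HDM201 without HDM201 replicate 5. With the replicate sets as a factor TFEC passed with both (adjusted p = 0.0163 and 0.00461).

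The genes that link p53 to autophagy had the largest changes: 10 of 12 (83.3%) rose with each compound, none fell, and the median changes were 1.43 and 1.63. The list was written for its link with p53, with earlier results of these data known, and is no independent evidence of its direction. TP53INP1 rose by 3.22 ± 0.23 and 3.44 ± 0.23 (adjusted p = 1.34e-08 and 3.01e-09). TIGAR, a phosphatase of sugar metabolism, rose by 2.05 and 2.21, SESN1, an inhibitor of mTORC1, by 1.98 and 2.13, and TRIM22 by 1.69 and 1.75. DRAM2 and WDR81 did not pass. DRAM2 changed by 0.20 and 0.21, and by 0.31 with RG7112 without RG7112 replicate 3.

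**Figure D5:**
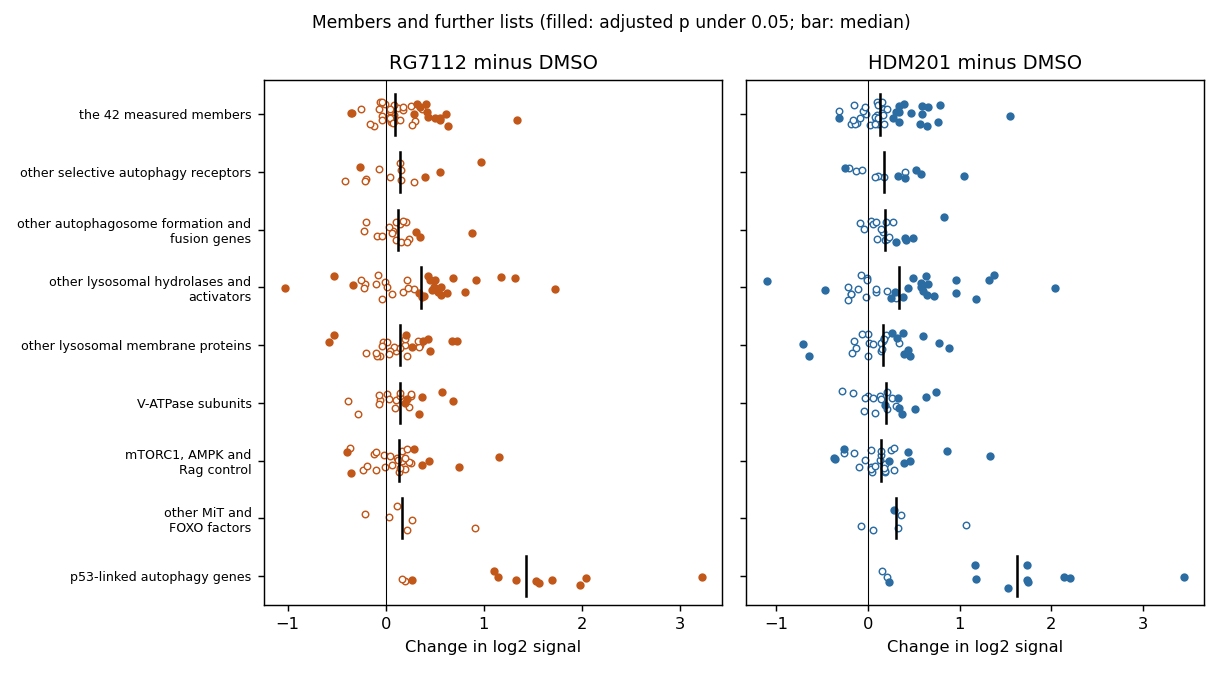
Change in log2 signal of each gene (points; filled, adjusted p under 0.05) for RG7112 minus DMSO and HDM201 minus DMSO, by list, with the median of each list as a bar; n = 6 arrays per group. The p53-linked genes lie farthest right, with medians of 1.43 and 1.63, the other lysosomal hydrolases have medians of 0.36 and 0.35, and the 42 measured genes of the main list have 0.09 and 0.14.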

How the data were processed

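RNA of OCI-AML3 cells was measured on 18 arrays, 6 each for RG7112, HDM201 and DMSO, grouped by their labels. The values are log2 signals that the authors deposited after RMA in the oligo package, per the submitters' processing notes. The sources used here give neither versions nor a genome build. RMA evens out the signal distributions of arrays, so a shift shared by most genes would not show. A reference table gave 17709 of 21448 probes 1 symbol, 0 several and 3739 none. No listed gene had more than 1 probe. All 18 columns were used, and 0 were left unused.

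Probe-wise models were fitted in limma 3.58.1 (R 4.3.3) to the 18 arrays, with 1 mean for each treatment and empirical Bayes moderation; the script was first tested on simulated data. P-values carry the Benjamini-Hochberg adjustment across the 21448 probes. Intervals are at 95%. For the replicate sets, the model had a mean per group and set. Motifs were searched with Python scripts. Arrays give no counts, and their number limits the precision.

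Named beyond the 43 listed genes are, per further list, up to 4 changed genes with the largest differences and the uncalled gene with the largest one, changed marker genes and CDKN1A. MDM2 was also in this rule, and its change is not given here. Genes outside this rule are marked. The genes and lists were chosen with earlier results of these data known. Of 229 genes in the 13 further lists, 202 were measured.

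The alternatives were another prior, array weights, 2 filters on dim probes, probes with 1 symbol only, array median subtraction, a further quantile normalization, the 12 arrays compared only, a replicate block, the replicate sets as a factor or alone, and each array left out.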

Additional observations from a re-analysis of the deposited data

Results flagged for a closer look

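Within the groups of 6 arrays, the signal of 1 array stood far from the other 5 in 17 of 264 cases tested (88 genes in 3 groups, by Dixon's criterion at the 95% level). Chance flags about 1 in 20 such cases among genes taken without regard to their values. The genes outside the list of 43 were mostly named for the size of their changes. The 17 cases therefore cannot be set against that rate. RG7112 replicate 3, the array with the narrow signal range, gave most of them. On this array ATG13 had 9.85 (others of the group 10.37 to 10.63), GABARAP 10.37 (11.06 to 11.28) and ATG2A 9.22 (8.95 to 9.03). Outside the 43 listed genes it had 7.16 for SEC62 (9.27 to 9.76), 9.03 for VPS39 (9.18 to 9.26), 7.55 for ATP6V0A2 (8.40 to 8.82), 10.79 for STK11 (9.62 to 10.05), 5.13 for RRAGD (6.31 to 6.82) and 8.84 for KRT8 (7.80 to 8.18). RG7112 replicate 2 had 10.61 for LAMP2 (10.27 to 10.39) and 9.55 for TBK1 (8.84 to 9.01), and RG7112 replicate 5 had 7.73 for ATG14 (7.91 to 7.99). HDM201 replicate 3 stood high for ATG4D at 8.72 (8.15 to 8.31), for ZFYVE1 at 8.65 (7.58 to 7.98) and for CLCN7 at 9.80 (9.17 to 9.38), and HDM201 replicate 4 stood low for ATG2A at 8.82 (9.01 to 9.09). DMSO replicate 5 was low for MAP1LC3A at 7.62 (7.97 to 8.16).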

How the results depend on the processing

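No called change turned round under the 30 settings tried, of which 18 left out 1 array. Calls of single genes were less steady: for the genes that rose with RG7112, 308 of 360 repeats kept the call and 52 lost it, and with HDM201 423 of 450 kept it and 27 lost it. Uncalled changes altered their sign without being called in 36 repeats for RG7112, 19 for HDM201 and 91 between the compounds. With 1 array left out, 9 to 13 genes rose and 0 to 2 fell with RG7112 (3074 to 4085 probes changed), 12 to 16 rose and 0 to 2 fell with HDM201 (3374 to 5212 probes), and 0 to 1 probe differed between the compounds, the 1 without HDM201 replicate 6. The count of genes that fell was 2 for HDM201 under array weights, 2 for each compound without probes below the median signal, 2 for RG7112 with array medians subtracted, and 2 for HDM201 with the replicate sets as a factor. Array weights also gave 1 gene that differed between the DMSO sets, a setting chosen for that comparison after the data were seen. With replicates 1 to 3 alone, 6 genes rose and 0 fell with RG7112 (1973 probes changed). With HDM201, 7 rose and 1, ATG12, fell in these replicates (2504 probes). With replicates 4 to 6 alone, 9 rose with RG7112 and 10 with HDM201, and 0 fell with either compound (2148 and 2595 probes). These fits hold fewer samples. Same-numbered arrays of different groups deviated together with a median correlation of 0.23 (0.02 to 0.44, above 0.1 in 16 of 18 pairs), 11 of 18 arrays matched best with their own number in both other groups, and the labels do not say what a number marks, so the numbers were not taken to pair the samples. With the replicate number as a block, 13 genes rose and 3 fell with RG7112 (4780 probes), and 16 rose and 2 fell with HDM201 (4866 probes). ATG9A (−0.34, adjusted p = 0.0275) and ATG12 (−0.25, adjusted p = 0.0494) then fell and TFE3 rose (0.0276) with RG7112, ATG12 fell (0.0153) and GABARAPL2 rose (0.0470) with HDM201, TFEC passed with both (0.0154 and 0.00478), as did CLCN7, ASAH1 passed with HDM201 and FOXO3 with RG7112. Averaging the probes of a symbol was not run, since no listed gene has more than 1. Dim probes limit what can be seen of TFEB.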
